A study of Mus musculus with 72 samples.

Results

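The cytosolic ribosomal protein genes were taken as the probe sets with a single gene symbol of the form Rpl or Rps followed by a number and an optional letter or -like suffix, with Rplp0, Rplp2 and Rpsa included and the Rps6 kinase genes left out. Of several probe sets for a gene, the one with the highest mean signal over the 72 arrays was kept. This gave 48 genes, 26 of the large and 22 of the small ribosomal subunit, of 18194 genes with a single-symbol probe set. The RNA on these Affymetrix arrays came from male mice, from the whole brain or the whole liver. The mice belonged to 3 inbred strains: C57BL/6J, called B6 here, DBA/2J, called D2, and 129S2. Tissue was collected at E14.5 (an embryonic stage), P1 and P7 (1 and 7 days after birth) and P90 (labelled 11 to 14 weeks of age), with 3 arrays in each of 24 groups. B6 and D2 stock came from The Jackson Laboratory and 129S2 from Charles River in France. The P90 mice were the purchased animals themselves, whereas the younger mice were their F1 generation, so stage and place of birth cannot be told apart. No mouse carried an engineered allele or received a treatment, and the labels do not say whether the 3 arrays of a group came from separate mice. The p-values therefore measure only the spread between these arrays.

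Ribosomal proteins coat the ribosomal RNAs of the small subunit, which reads the messenger RNA, and of the large subunit, which joins amino acids. Cells make them in near-equal numbers, and growing or dividing cells devote much of their transcription to them. Their messenger RNAs typically begin with a C followed by a run of pyrimidines (C or T), the 5′ terminal oligopyrimidine tract, through which the mTOR pathway and the RNA-binding protein Larp1 control their translation. Several genes have relatives with a -like suffix that are expressed in particular tissues or states.

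The letters around the transcription start are shown for some of the members named in the results. RefSeq, on GRCm38.p6, gave promoter sequences for 42 of the 48 genes and 50 starts. Each window below holds 15 bases before and 25 bases from the start, 5′ to 3′ on the gene's strand, and capitals mark the first run of a C followed by at least 6 pyrimidines that begins between 10 bases before and 15 bases after the start. Single probe sets of Rps6 (chr4:86857343-86857382, minus strand), Rpl14 (chr9:120571502-120571541, plus strand) and Rps9 (chr7:3704026-3704065, plus strand) had the strain differences described further on. For Rps9 this was a second probe set and not that of the member.
Rps6: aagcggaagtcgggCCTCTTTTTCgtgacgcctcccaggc
Rpl14: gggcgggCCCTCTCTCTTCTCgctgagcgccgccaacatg
Rps9: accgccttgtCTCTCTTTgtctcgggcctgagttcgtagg
Rps27l (chr9:66946071-66946110, plus strand, the first of its annotated starts shown), Rpl22l1 (chr3:28805493-28805532, plus strand) and Rpl39 (chrX:37085198-37085237, minus strand) were among the members furthest from the rest across stages or tissues, and Rpl35 (chr2:39005107-39005146, minus strand) was among the bright members lower by at least 2-fold in liver at P90.
Rps27l: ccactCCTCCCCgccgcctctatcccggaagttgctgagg
Rpl22l1: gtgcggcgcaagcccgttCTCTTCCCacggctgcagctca
Rpl39: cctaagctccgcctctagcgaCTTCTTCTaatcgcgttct
Rpl35: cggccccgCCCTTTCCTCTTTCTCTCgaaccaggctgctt
Rplp0 (chr5:115559452-115559491, plus strand), Rpsa (chr9:120127751-120127790, plus strand) and Rps2 (chr17:24720048-24720087, plus strand) are shown because their windows held no such run at the annotated start.
Rplp0: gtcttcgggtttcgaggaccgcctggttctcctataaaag
Rpsa: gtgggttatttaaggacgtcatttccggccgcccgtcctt
Rps2: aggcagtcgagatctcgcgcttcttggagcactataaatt
The windows of many other members named below held no such run and are not shown. Among them are Rps25, Rpl7l1, Rpl12, Rpl37, Rpl22, Rpl27, Rpl37a, Rps15, Rps7, Rpl41, Rps28, Rpl4, Rps3, Rps4x, Rps16 and Rpl3l. The windows shown therefore do not stand for the members named. The run was present at 21 of the 50 starts of the members (42%) and at 11.4% of all 32851 starts in the same window on the gene's strand. The letters CCGGAA, read on both strands over 300 bases, were present at 27 of the 50 starts (54%) and at 14.9% of all starts. These are matches of letters at annotated starts and say nothing of binding or of the starts used in these tissues.

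Most members were among the brightest probe sets on the array. Levels are deposited log2 signals, in which 1 unit is a factor of 2, and probe sets differ in brightness for the same RNA, so levels order probe sets and not protein amounts. Of the 48 members, 35 had a mean rank at or above the 95th percentile of all probe sets, and these bright members had mean levels of 11.63 to 13.97 with a median of 13.27. The highest in brain were Rps29 at 13.99, Rpl41, which encodes the smallest ribosomal protein, at 13.81 and Rps28 at 13.74. In liver they were Rps29 at 13.94, Rps28 at 13.74 and Rps10 at 13.69. The order of the 35 bright members was similar between the 8 combinations of tissue and stage, with Spearman correlations of 0.584 to 0.965 and a median of 0.843 over 28 pairs, given as a description over genes that share the same arrays.

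The other 13 members fell into groups of different kinds. Rpl39l, Rpl3l, Rpl7l1 and Rps4l carry a -like suffix and had mean levels of 5.24, 4.23, 9.74 and 9.39. Rpl3l, which is known from heart and skeletal muscle, and Rps16 at 4.22 stayed below the expression minimum of 6.66 (the median of all values) in every group and were not tested. Rps16, Rpl39, Rpl14, Rps27, Rpl12, Rps6, Rps25, Rpl27a and Rpl37, at 4.22 to 10.10, are genes without such a suffix, and for each of them a probe set that carries the same symbol together with a pseudogene or other symbol was much brighter, at 12.69 to 13.95. In all, 110 probe sets with several symbols included a ribosomal protein symbol, and 29 such symbols occurred only there and are not members. The values of the 9 genes below are therefore those of 1 dim probe set each, and values of the brighter, shared probe sets are given below.

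**Figure D1:**
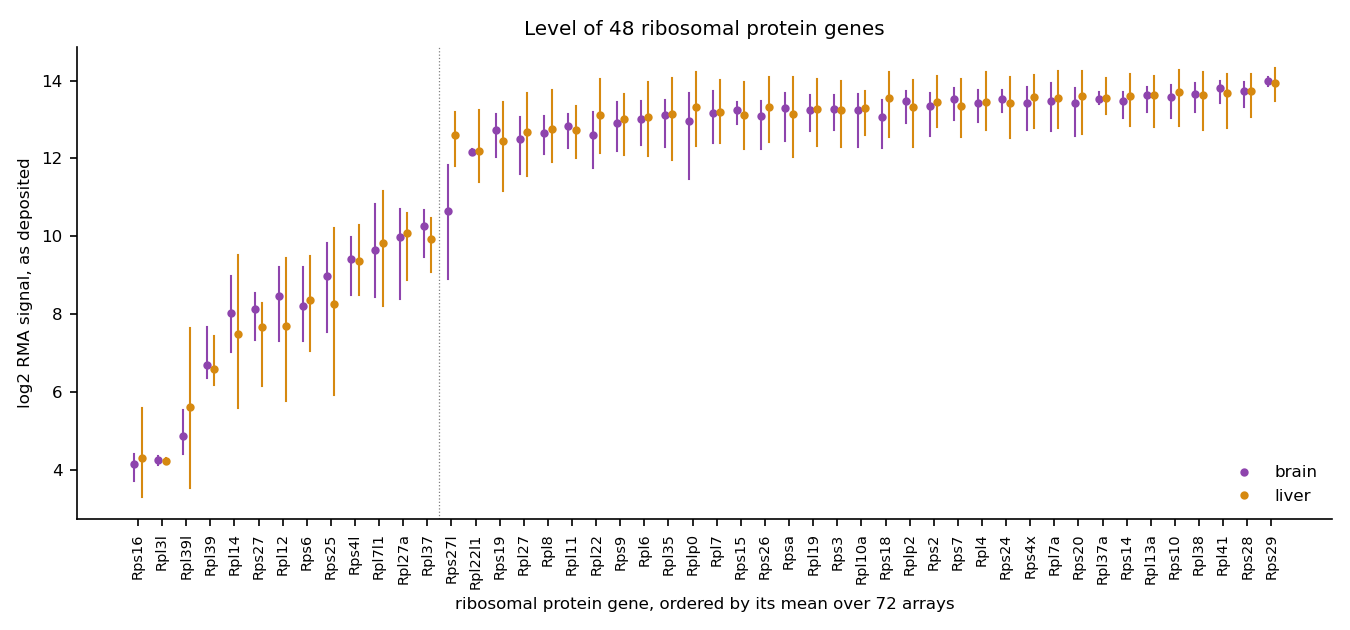
Deposited log2 signal (vertical axis) of each of the 48 members (horizontal axis, ordered by mean over 72 arrays) in brain and liver, with a point for the mean and a bar from the lowest to the highest of the stage means. The 35 bright members, right of the dotted line, have means of 11.63 to 13.97 over 72 arrays.

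Brain and liver arrays were checked against markers of their tissues. The median array percentile of 12 neuronal genes was 95.3 to 98.4 in the brain sets and 19.8 to 42.1 in the liver sets, and that of the hepatocyte genes was 98.7 to 99.96 in liver and 32.6 to 65.7 in brain. The array medians ran from 5.03 to 7.30 between tissues and stages but differed by at most 0.07 within one, and 1.55 to 4.35% of values were equal to the last digit between arrays of one tissue and stage against 0 otherwise. The 8 sets of 9 arrays had therefore been normalized apart, and stages and tissues are compared by size after quantile normalization, without a test. In whole tissue, fewer cells of a type and less RNA per cell cannot be told apart.

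Within groups the bright members were close together. Their standard deviation over the 3 arrays had a median of 0.04 and a maximum of 0.24 over 23 groups. The exception was B6 brain at E14.5, where the median was 0.54 and the maximum 1.31, and where replicate 3 stood apart. For the 13 other members the median was 0.12 and the maximum 1.29 over 24 groups.

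On that array, B6 E14.5 brain replicate 3, the median of the bright members was 12.77, against 13.63 to 13.77 on the other 8 arrays of E14.5 brain. Relative to the mean of the other 2 B6 arrays, 34 of the 35 bright members were lower and 17 were lower by at least 2-fold, with a median difference of -0.94. The median over all 14181 genes tested in brain was 0.04, and 543 of them were lower by at least 2-fold. The shift was uneven across members: Rps27l stood at 9.76 against 12.03, a difference of -2.28, and Rpl37, Rps19, Rpl37a and Rpl38 differed by -2.21, -1.95, -1.91 and -1.83. Rplp0 differed by -0.08 and Rpl4 by 0.06. The 76 mitochondrial ribosomal protein genes were lower on the same array by a median of -0.73 (74 of 76 lower), and the 29 cell cycle genes by a median of -0.93 (28 of 29 lower). The 12 neuronal genes were higher by a median of 0.52, and the initiation and elongation factors differed by -0.02 and -0.20. Hepatocyte genes were lower by a median of -1.85 (8 of 9 lower) and erythroid genes by -0.78 (11 of 11 lower), but in these lists the other 2 B6 arrays were themselves apart by medians of 2.82 and 1.82, against 0.04 over the bright members. The log2 ratio of the 3′ to the 5′ probe set of the control transcript Actb was 0.31 on this array and 0.40 to 0.64 on the other 8, and that of Gapdh was -0.20 against -0.16 to 0.04. The part of RNA quality or of dissection in this array's values was not tested, and the members' medians that include E14.5 brain, and single values that it moves most, are given with and without it.

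**Figure D2:**
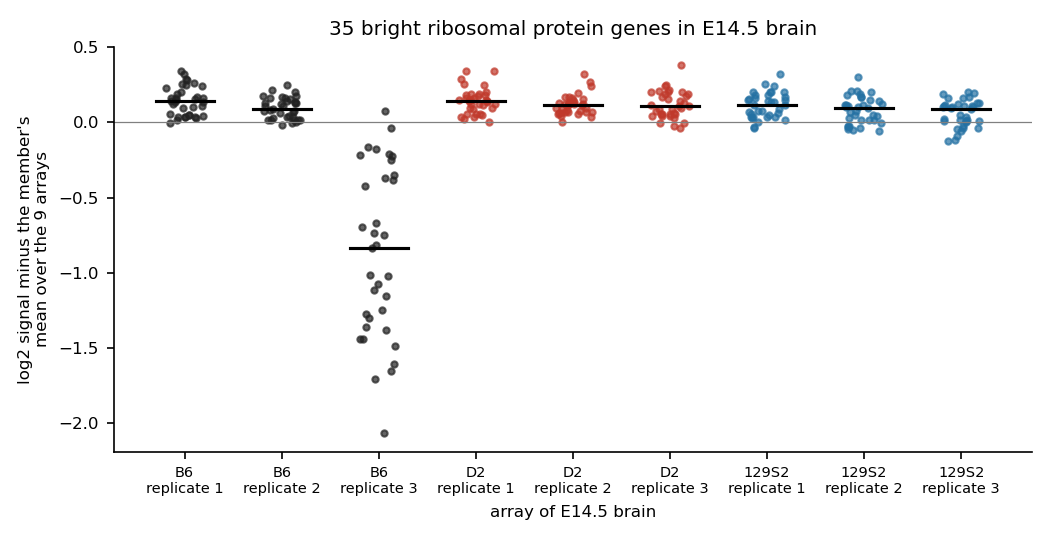
Log2 signal of the 35 bright members minus their mean over the 9 E14.5 brain arrays (vertical axis) on each array (horizontal axis, by strain and replicate), with a point for each member and a line at the median. The points of B6 replicate 3 lie mostly below 0, and its median bright level was 12.77 against 13.63 to 13.77 on the other arrays.

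Another array and another group also stood apart. On 129S2 P90 brain replicate 2, the median distance from B6 over 34 genes that separated the strains was 1.14, against 1.64 and 1.57 on the other 2 arrays of its group. In D2 liver at P1, the 3′ to 5′ log2 ratio was 1.58 to 3.21 for Actb and 0.82 to 1.72 for Gapdh, against 0.76 to 1.205 and 0.20 to 0.52 on the other 6 arrays of that set. The part of these differences in the members' values was not tested. The liver results averaged over stages were also fitted without the P1 set, which left 27 arrays, and the count of calls stayed at 6.

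Between E14.5 and P90, ribosomal protein transcripts were lower at the later stage in both tissues, by more in liver than in brain, on arrays quantile normalized within each tissue. The direction in liver turned, with a median of 0.05 in place of -0.95, when each array was instead centred on its own median. In brain, the median difference of 45 members was -0.51, with 5 lower and 1 higher by at least 2-fold in each of 3 strains. Of all 14181 genes, 15.9% were lower and 12.1% higher by that rule, and their median was -0.20. In liver, the median of 46 members was -0.95, with 13 lower and 1 higher, where 19.8% of 13145 genes were lower and 14.1% higher with a median of -0.21. The member higher in each tissue was Rpl39, which passed the expression minimum only through its P90 values. All 35 bright members were lower in liver in each of 3 strains, by a median of -0.95, whereas in brain the bright members had a median of -0.34 and 24 of 35 were lower in each strain. Without B6 E14.5 brain replicate 3 the brain median of all 45 members was -0.53 and that of the bright members -0.43, and 32 of 35 were lower in each strain. On the values as deposited, the medians of the members were -1.11 in brain and -1.64 in liver, where those of all genes were -0.96 and -1.70.

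The steps between stages had different sizes in the tissues. In brain, the members' median difference was -0.01 from E14.5 to P1, -0.22 from P1 to P7 and -0.20 from P7 to P90, beside 0.03, -0.00 and -0.17 over all genes. By at least 2-fold in each strain, 0 of 45 members were higher or lower in the first step (4.49% and 3.21% of all genes) and 0 in the second (1.23% and 0.338%). In the last step 1 was higher and 3 were lower (4.01% and 9.82%). In liver the medians were -0.35, -0.20 and -0.40, beside -0.05, 0.01 and -0.16 over all genes. Of 46 members, 0 were higher and 3 lower in the first step (9.23% and 5.58% of all genes), 0 and 1 in the second (1.31% and 0.525%), and 1 and 0 in the last (3.8% and 12.4%). Without B6 E14.5 brain replicate 3 the first step in brain had a median of -0.09, with 28 of 45 members lower and 7 higher in each strain. On arrays centred on their own medians the last step turned in both tissues, to 0.14 in brain (26 of 45 members higher and 16 lower in each strain) and 0.44 in liver (39 of 46 higher and 6 lower), beside -0.08 and 0.12 over all genes. The first step in brain turned to 0.07, and the first and second in liver were -0.36 and -0.07. The difference between the tissues was not tested.

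Other genes of protein synthesis, from lists chosen with earlier results of these data known, were lower at P90 by similar sizes on quantile normalized arrays. The likeness in size is bound to that scaling, since the members' liver median was 0.05 on centred arrays. As deposited, the median level of the ribosome biogenesis genes in liver was 10.36 at E14.5 and 7.69 at P90. That drop was larger than the drop of the array medians, from 6.73 to 6.76 at E14.5 to 5.03 to 5.08 at P90. In brain, the medians were -0.51 for 32 initiation factors, -0.48 for 9 elongation factors, -0.52 for 46 ribosome biogenesis genes and -0.71 for 17 other genes whose messenger RNAs carry the pyrimidine tract. In liver they were -0.95, -1.12, -1.23 and -1.26. The 76 mitochondrial ribosomal protein genes had medians of -0.05 in brain and -0.17 in liver, near those of all genes, with 0 and 5 of them lower by 2-fold. Cell cycle genes were lower by a median of -3.83 in brain and -5.24 in liver, where 28 and 29 of 29 were lower by at least 2-fold. In liver the 12 erythroid genes, which mark the blood-forming cells of the fetal liver, were lower by a median of -6.65. In brain, neural progenitor genes were lower by -2.34 and myelin genes higher by 3.49. The part of these changes in cell composition in the members' values was not tested.

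Among the genes of the large subunit, Rplp0, the base of the stalk that recruits elongation factors, was lower at P90 in brain by nearly the same size in each strain. Its 9 deposited values in brain were 13.56 to 13.74 at E14.5, 13.09 to 13.36 at P7 and 11.32 to 11.57 at P90. These ranges did not overlap, but the stages were normalized apart. Deposited ranges of other members were separate too, such as Rpl7 in brain at 13.56 to 13.79 at E14.5 and 12.25 to 12.47 at P90. After quantile normalization, Rplp0 was lower at P90 in brain by -1.56 ± 0.01 (SD, n = 3 strains), a fold of 2.95, and in liver by -1.34 ± 0.15 (SD, n = 3 strains). Relative to the median of the bright members on the same array, Rplp0 stood at 0.07 in brain at E14.5 (-0.03 without B6 replicate 3), -0.13 at P1, -0.14 at P7 and -1.14 at P90, whereas in liver its stage means were between -0.12 and 0.14. Rplp2, the other stalk protein among the members, differed by -0.24 ± 0.28 in brain (-0.40 ± 0.04 without B6 replicate 3) and -1.01 ± 0.09 in liver (SD, n = 3 strains).

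Of the 45 members above the expression minimum in brain, those with the lowest P90 minus E14.5 differences were Rps27l at -2.25 ± 0.43, Rpl7l1 at -1.71 ± 0.11, Rps25 at -1.58 ± 0.24, Rplp0 and Rpl27a at -1.21 ± 0.55 (SD, n = 3 strains). The highest were Rpl39 at 2.06 ± 0.01, Rpl22l1 at 0.46 ± 0.22, Rpl37a at 0.21 ± 0.28, Rps29 at 0.11 ± 0.20 and Rps15 at 0.09 ± 0.24. Without B6 E14.5 brain replicate 3, these values were -2.50 for Rps27l, 0.28 for Rpl22l1, 0.01 for Rpl37a, -0.01 for Rps29 and -0.07 for Rps15. The values of the last 3 genes were thus near 0 or below it without that array. Rpl39l, below the minimum in brain and not ranked there, differed by 0.30 ± 0.25.

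In liver, the lowest differences were those of Rps25 at -2.69 ± 0.15, Rpl39l at -2.65 ± 0.55, Rpl14 at -2.30 ± 0.04, Rpl12 at -2.05 ± 0.26 and Rpl7l1 at -1.64 ± 0.20 (SD, n = 3 strains). All of these are among the 13 dimmer members. Rpl39l passed the expression minimum in liver only through its E14.5 values, which favours a low difference. The bright members lower by at least 2-fold in each strain included Rps19, a gene mutated in Diamond-Blackfan anaemia, at -1.42 ± 0.12, Rpl35 at -1.38 ± 0.14, Rpl27 at -1.33 ± 0.09 and Rpsa, also known as the laminin receptor, at -1.34 ± 0.18. On arrays centred on their own medians none of these 4 reached 2-fold, with Rps19 at -0.57, Rpl35 at -0.41, Rpl27 at -0.46 and Rpsa at -0.36, and Rpsa was also short of it on the mean of its probe sets, at -0.81. The highest liver values were those of Rpl39 at 2.67 ± 0.06, Rpl37 at 0.24 ± 0.22, Rpl27a at -0.19, Rpl37a at -0.28 ± 0.06 and Rpl10a at -0.34.

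Several of these extremes differed from the brighter probe sets that share the symbol. The Rpl39 probe set read 6.08 to 6.50 in brain at E14.5 and 7.59 to 7.74 at P90, and 6.14 to 6.34 and 7.37 to 7.52 in liver. The brighter probe set that carries Rpl39 among several symbols differed between P90 and E14.5 by only -0.04 in brain and by -0.47 in liver. In liver the 2 probe sets thus pointed in opposite directions, and in brain the brighter one hardly differed. For Rps25 the 1 shared probe set gave 0.15 in brain and -0.65 in liver. For Rpl12 the brightest of 2 gave -0.04 and -0.88, and the other, of similar brightness, gave -0.43 and -1.40. For Rpl14 the brightest of 5 gave -0.45 and -1.21, and the 5 ran from -0.43 to -0.61 and from -0.95 to -1.79. For Rpl27a the 1 shared probe set gave -0.06 and -1.15. For Rpl37, second highest in liver at 0.24, the brightest of 3 gave -0.10 in brain and -1.24 in liver, the opposite direction in liver. For Rps6 the brightest of 9 gave -0.37 and -0.93, and for Rps16 the brightest of 2 gave -0.34 and -0.78. The 81 bright probe sets with several symbols had medians of -0.29 in brain and -1.03 in liver, close to those of the bright members.

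**Figure D3:**
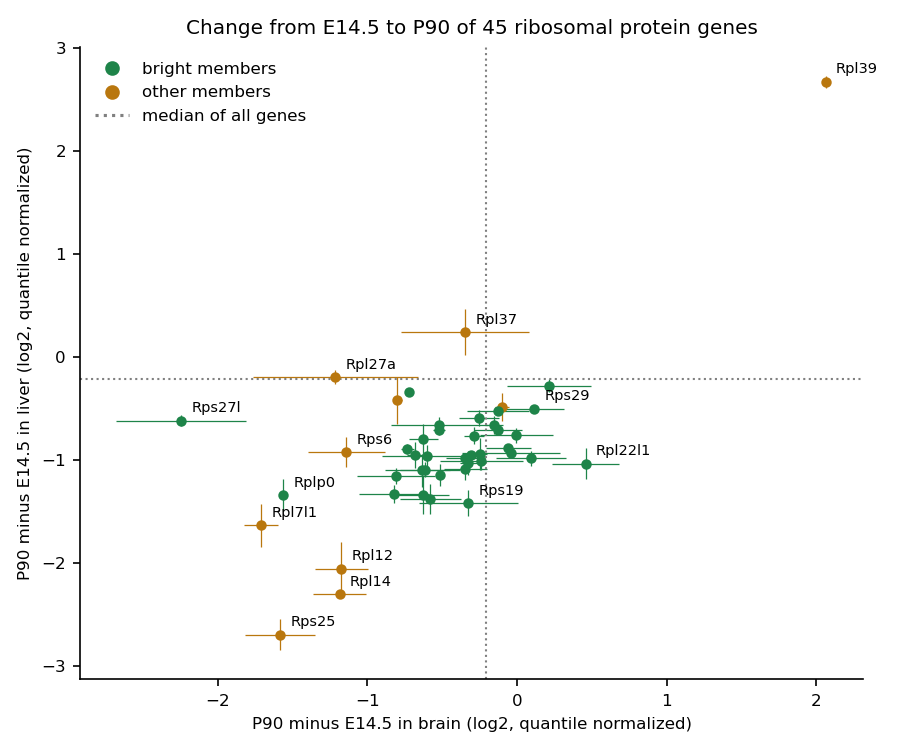
Difference between P90 and E14.5 (log2, quantile normalized within tissue) in brain (horizontal axis) and liver (vertical axis) for each member above the expression minimum in both, with bars for the SD over 3 strains and dotted lines at the medians of all genes. Rpl39 lies far above the rest at 2.06 and 2.67, and Rps27l is the lowest in brain at -2.25. Rpl39 passed the expression minimum only through P90 in both tissues.

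Rps27l, a relative of Rps27 that the tumour suppressor Trp53 induces, was the bright member furthest apart between the tissues, averaged over stages. Its values in brain were 11.99, 12.08 and 9.76 in B6 at E14.5 and 11.88 to 12.21 in the other strains, and 8.75 to 9.01 over the 9 arrays at P90. In liver its 9 values at P90 were 11.70 to 11.93. The P90 ranges of the tissues lay far apart. Relative to the bright median on the same array, Rps27l stood in brain at -1.78, -2.45, -2.60 and -3.71 from E14.5 to P90, a level that was lower at each later stage (-1.62 at E14.5 without B6 replicate 3), and in liver at -0.87, -0.97, -0.46 and -0.63. After quantile normalization of all arrays, brain was below liver by -1.40 ± 0.61 at E14.5 (-1.11 ± 0.12 without B6 replicate 3), -1.82 ± 0.09 at P1, -2.53 ± 0.09 at P7 and -3.33 ± 0.09 at P90 (SD, n = 3 strains). Its 2 other single-symbol probe sets gave averages over stages of -2.32 and -2.25, beside -2.27 for the representative one.

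Rps27, its parent gene, was represented by a dim probe set with a mean of 7.91. The brighter probe set that carries Rps27 among several symbols, at 12.69, differed between P90 and E14.5 by 0.50 in brain and -0.67 in liver.

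Rpl22 and its relative Rpl22l1, whose messenger RNA is a known target of the Rpl22 protein, went in opposite directions in brain relative to the bright members, by their stage means. Rpl22l1 stood below the bright median by -1.36 at E14.5, -1.44 at P1, -1.15 at P7 and -0.49 at P90, and Rpl22 by -0.42, -0.72, -0.77 and -0.88. Without B6 E14.5 brain replicate 3 the values at E14.5 were -1.28 and -0.37. In liver, Rpl22l1 stood at -0.83, -1.30, -1.38 and -1.05 and Rpl22 at -0.05, -0.24, -0.27 and -0.30, so that both were lower at P90 than at E14.5. The levels of Rpl22l1 itself were 10.81 to 12.60 in brain at E14.5 and 12.01 to 12.25 at P90, and these ranges overlapped. The lowest of them was that of B6 replicate 3, and the other 8 E14.5 arrays read 12.22 to 12.60. In liver they were 12.93 to 13.46 at E14.5 and 11.25 to 11.57 at P90, and did not overlap. These are deposited values of stages normalized apart, and other members were separate in liver too, such as Rps29 at 14.28 to 14.37 and 13.42 to 13.53. After quantile normalization, the P90 minus E14.5 difference of Rpl22 was -0.81 ± 0.26 in brain and -1.16 ± 0.08 in liver (SD, n = 3 strains). The 2 other probe sets of Rpl22 gave -0.81 and -1.94 in brain.

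The remaining relatives are given beside their parents, each by its own probe set. Rpl39l, which is known from the male germ line, read 6.96 to 9.14 in liver at E14.5 and 3.42 to 3.62 at P90, and stayed between 4.18 and 6.16 on every brain array. Its parent Rpl39 read 6.14 to 6.34 in liver at E14.5 and 7.37 to 7.52 at P90. Rpl7l1 stood -2.79 below the bright median in brain at E14.5 and -4.19 at P90, and -2.90 and -4.24 in liver, whereas Rpl7 stayed between -0.28 and 0.11. Rps4l stood at -3.61 to -4.49 and its X-linked relative Rps4x at 0.07 to 0.35, over the 8 combinations of tissue and stage.

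**Figure D4:**
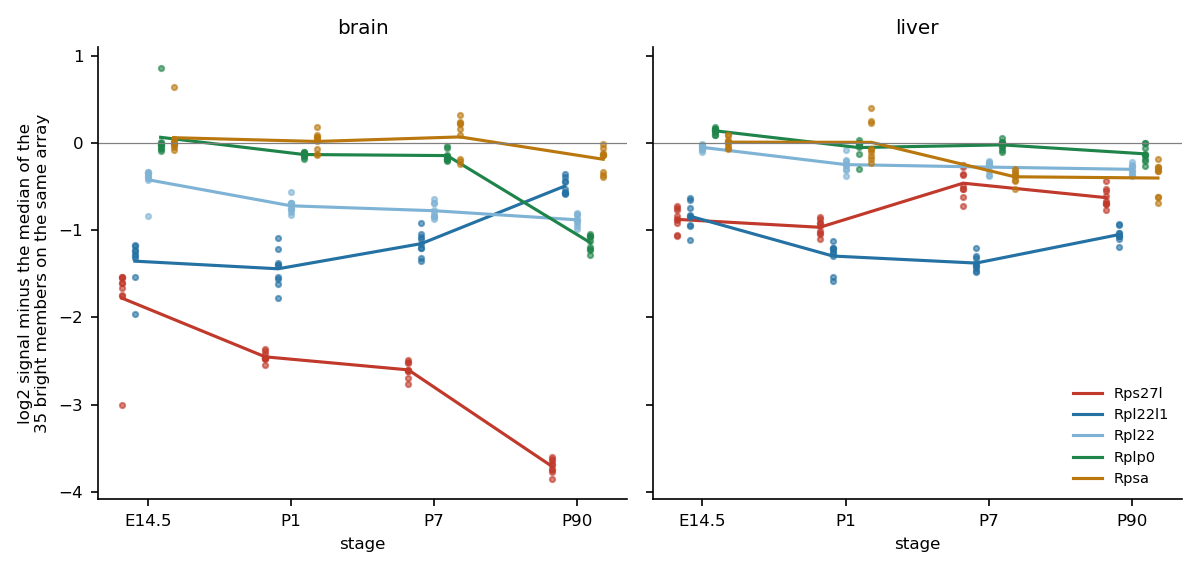
Level of Rps27l, Rpl22l1, Rpl22, Rplp0 and Rpsa minus the median of the 35 bright members on the same array (log2, vertical axis) by stage (horizontal axis) in brain and liver, with a point for each array and lines through the stage means. Rps27l in brain goes from -1.78 at E14.5 to -3.71 at P90 and Rplp0 from 0.07 to -1.14, and the E14.5 brain points far from the others belong to B6 replicate 3.

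Between brain and liver, the members as a whole stood close together. On arrays quantile normalized together, the median brain minus liver difference of 46 members was -0.27 at E14.5, 0.06 at P1, -0.05 at P7 and 0.10 at P90, beside -0.17, -0.10, -0.11 and -0.16 over all genes. On arrays centred on their own medians these values were -0.92, -0.56, -0.77 and -1.11, so the direction at P1 and P90 turned, and the median of all genes moved to -0.25, -0.06, -0.13 and -0.38. Lower by at least 2-fold in each strain were 2 members at E14.5, 2 at P1, 2 at P7 and 3 at P90, where 16.3%, 19.3%, 20.2% and 20.2% of all 15071 genes were. None of the 46 was higher by that rule at any stage, where 16.4%, 19.1%, 19.5% and 21.2% of all genes were. Without B6 E14.5 brain replicate 3 the median at E14.5 was -0.13. The 76 mitochondrial ribosomal protein genes were lower in brain at each stage, by medians of -0.81, -0.48, -0.73 and -0.71.

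Averaged over stages, the members lowest in brain relative to liver were Rps27l at -2.27 ± 0.21, Rpl39l at -1.29 ± 0.14, Rps6 at -0.9999 ± 0.19, Rpl7l1 at -0.92 ± 0.13 and Rpl27a at -0.76 ± 0.30 (SD, n = 3 strains). The highest were Rps7 at 0.34 ± 0.06, Rpl41 at 0.33 ± 0.07, Rplp2 at 0.27 ± 0.08, Rps29 at 0.25 ± 0.07 and Rps24 at 0.23 ± 0.10. All of the lowest but Rps27l are among the 13 dimmer members. For Rpl27a, the brighter probe set that shares the symbol gave 0.03. The 81 bright probe sets with several symbols had a median of -0.01. The average hid stage-bound differences. Rpl39l was lower in brain by -2.95 ± 0.35 at E14.5 and stood at 0.12 ± 0.06 at P90. It passed the expression minimum only through liver at E14.5. Rplp0 was lower in brain by -0.97 ± 0.13 at P90 and differed by 0.01 ± 0.06 at P1. Rpl22l1 went from -0.95 ± 0.44 at E14.5 to 0.50 ± 0.12 at P90. Without B6 E14.5 brain replicate 3, Rpl22l1 at E14.5 was at -0.75 ± 0.11, and the averages over stages were -2.20 for Rps27l, 0.37 for Rpl41 and 0.35 for Rps7.

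Averaged over stages, strain differences were called in Rpl14, Rps6 and Rps4l. A member was called when limma, fitted over all genes of a tissue, gave an adjusted p below 0.05 (Benjamini-Hochberg) and a difference of at least 1.5-fold. In brain, 3 of 45 members were called between D2 and B6, 2 between 129S2 and B6 and 1 between 129S2 and D2, where 1.26%, 1.26% and 1.06% of all genes were. In liver the counts were 3, 1 and 2 of 46, where 2.7%, 3.28% and 2.72% of all genes were. None of the 35 bright members was called in these 6 comparisons, and the medians of all members were between -0.04 and 0.12.

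Rpl14, a protein of the large subunit, was higher in D2 than in the other strains in both tissues at each stage. In brain at E14.5 it read 8.88, 8.44 and 7.53 in B6, 10.07, 10.29 and 10.06 in D2 and 8.50, 8.57 and 8.50 in 129S2. In liver at P90 it read 5.12, 5.02 and 4.99 in B6, 6.40, 6.93 and 6.70 in D2 and 4.97, 5.20 and 4.96 in 129S2. The D2 arrays were above every array of the other strains in each of the 8 combinations of tissue and stage. Averaged over stages, Rpl14 was higher in D2 than in B6 by 1.76 ± 0.12 in brain (SE, 36 arrays; limma, adjusted p = 4.47e-12) and by 1.45 ± 0.06 in liver (SE, 36 arrays; limma, adjusted p = 1.55e-17). 129S2 was below D2 by -1.49 in liver (limma, adjusted p = 1.1e-17). In brain at P90, 129S2 replicate 2 read 7.51 where the other 2 arrays read 6.16 and 6.23.

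The brighter probe sets that carry Rpl14 together with other symbols gave much smaller differences. The 5 of them, with mean levels of 11.95 to 12.95, differed between D2 and B6 by 0.15 to 0.20 in brain and by -0.03 to 0.16 in liver, and limma called 0 of 5 in any of the 6 comparisons.

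Rps6, the small-subunit protein that the Rps6 kinases phosphorylate in response to growth signals, was lower in D2 and 129S2 than in B6. In liver at P90 it read 8.09, 7.95 and 7.94 in B6, 6.58, 6.74 and 6.56 in D2 and 6.51, 6.55 and 6.58 in 129S2, with B6 apart from both. In liver at E14.5 it read 10.11, 10.30 and 10.08 in B6, 9.08, 9.32 and 9.47 in D2 and 8.82, 9.13 and 9.10 in 129S2. The difference between D2 and B6 averaged -0.79 ± 0.08 in brain (limma, adjusted p = 8.45e-09) and -1.12 ± 0.06 in liver (limma, adjusted p = 1.09e-15), and that between 129S2 and B6 -0.74 and -1.16. In brain it was not called at E14.5, at -0.53 for D2 and -0.55 for 129S2, and it was called there without B6 E14.5 brain replicate 3, at -0.71 and -0.73 (limma, adjusted p = 0.00343 and 0.00468). On 129S2 P90 brain replicate 2, Rps6 read 7.64 where the other 2 arrays read 6.74 and 6.73. The 9 probe sets that carry Rps6 together with other symbols differed between D2 and B6 by 0.02 to 0.14 in brain and by -0.04 to 0.01 in liver, and limma called 0 of 9.

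Rps4l was lower in D2 than in B6, and in liver its size depended on the stage. In liver at E14.5 it read 10.50, 10.26 and 10.37 in B6, 10.31, 10.14 and 9.82 in D2 and 10.44, 10.38 and 10.39 in 129S2, and the ranges of B6 and D2 overlapped. In liver at P1 it read 9.86, 9.83 and 9.97 in B6, 8.15, 8.30 and 8.25 in D2 and 9.39, 9.23 and 8.92 in 129S2, with the 3 strains apart. The P1 difference between D2 and B6 was -1.65 ± 0.20 (limma, adjusted p = 4.53e-07), the largest of the Rps4l differences in liver, in the set where the D2 arrays had the higher 3′ to 5′ ratios. The range of the D2 minus B6 difference over stages was 1.37 (limma F test of the interaction of strain and stage, adjusted p = 0.0142). Without the P1 set it was 0.78 and not called (limma F test, adjusted p = 0.221). Averaged over stages, D2 was below B6 by -0.99 ± 0.11 in brain and -0.98 ± 0.10 in liver (limma, adjusted p = 5.86e-08 and 6.27e-09). 129S2 was below B6 in brain by -0.74 (limma, adjusted p = 1.07e-05) and above D2 in liver by 0.68 (limma, adjusted p = 4.38e-06). Without the P1 set, the averaged liver differences were -0.75 and 0.59, both still called (limma, adjusted p = 6.78e-05 and 0.000975). At P90 in brain the difference between 129S2 and B6 was called at -0.81, and not without 129S2 replicate 2 (-0.64, adjusted p = 0.131), B6 replicate 1 (-0.73, adjusted p = 0.114) or B6 replicate 3 (-0.79, adjusted p = 0.0857; limma).

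All 12 of these averaged calls of Rpl14, Rps6 and Rps4l were kept in each of 45 other settings, which did not include the requirement of a second probe set. For none of the 3 genes was there another single-symbol probe set above the expression minimum to compare.

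**Figure D5:**
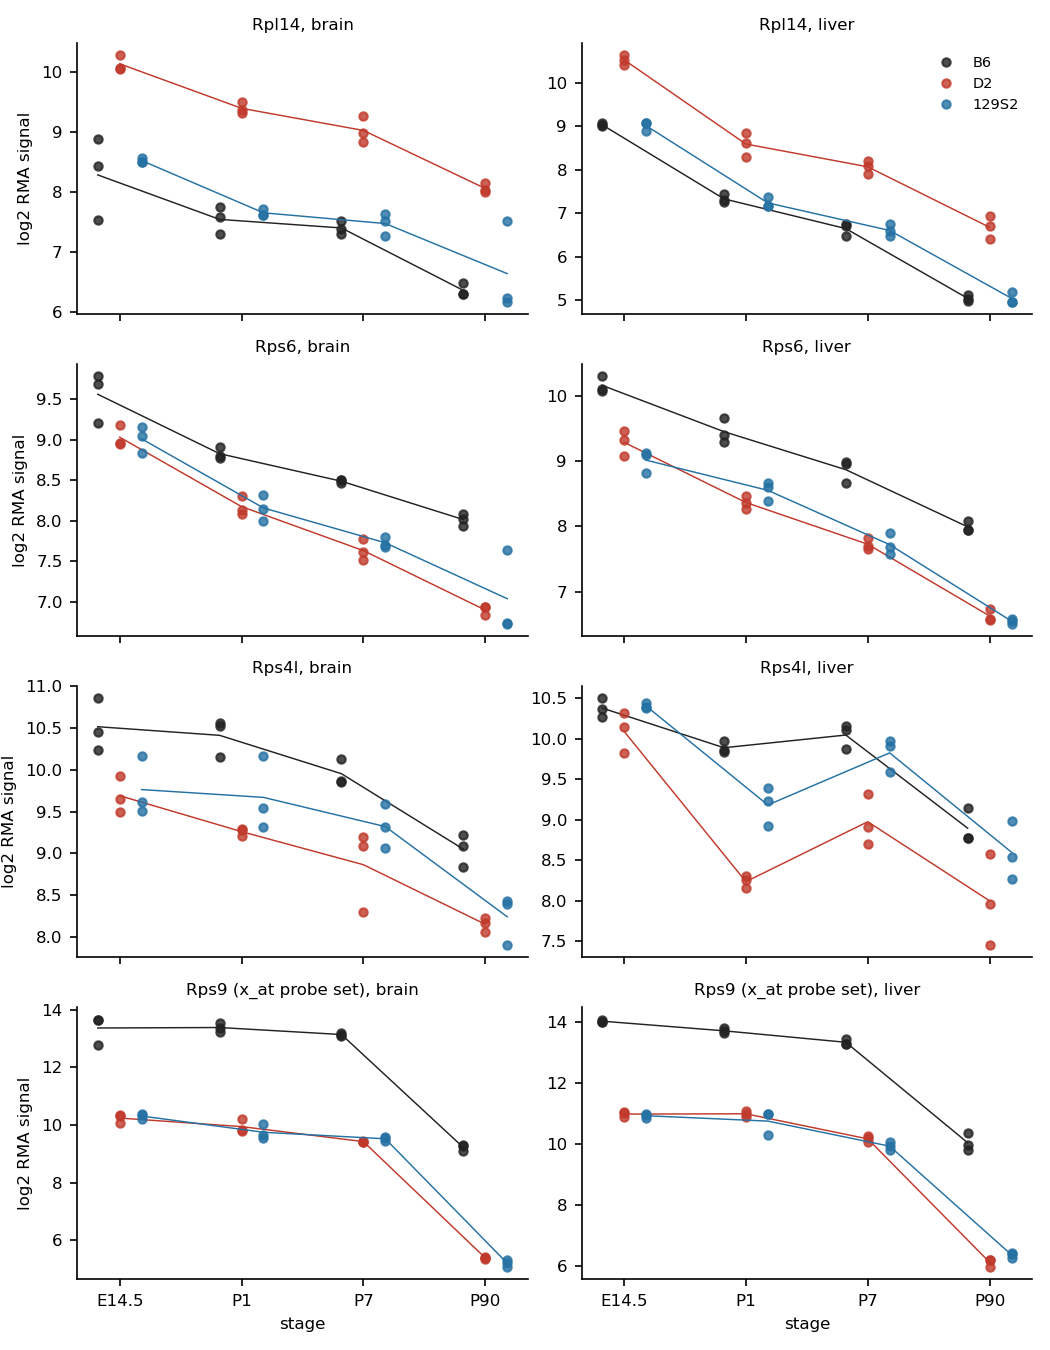
Deposited log2 signal (vertical axis) of Rpl14, Rps6, Rps4l and a second probe set of Rps9 on each array, by stage (horizontal axis) and strain (colour), in brain and liver, with a point for each array and lines through the group means. The D2 points of Rpl14 lie above those of the other strains, and the B6 points of Rps6 and of the Rps9 probe set lie above those of D2 and 129S2.

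Differences between strains at a single stage were called in few members. Of 45 members in brain, D2 and B6 differed in 4 at E14.5, 3 at P1, 3 at P7 and 3 at P90, where 4.39%, 1.3%, 1.45% and 1.95% of all genes were called. 129S2 and B6 differed in 1, 1, 1 and 2 members, where 3.24%, 1.24%, 1.32% and 1.72% of all genes were, and 129S2 and D2 in 1, 1, 1 and 2, where 1.54%, 1.36%, 1.11% and 1.45% were. Of 46 members in liver, D2 and B6 differed in 3 at each stage, where 5.33%, 8.06%, 5.04% and 5.01% of all genes were called. 129S2 and B6 differed in 1, 2, 1 and 1, where 4.3%, 4.32%, 5.33% and 7.93% were, and 129S2 and D2 in 2, 3, 3 and 2, where 2.81%, 7.42%, 6.53% and 6.14% were. In liver these shares lie near those of all genes, and most calls were those of Rpl14, Rps6 and Rps4l. With the replicate number as a block, 2 members in place of 1 were called between 129S2 and B6 in brain at P1, where Rps4l was added (-0.74, limma adjusted p = 0.0382, against 0.0638 without the block).

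At E14.5 in brain the strain differences of the whole family turned on 1 array. The median difference between D2 and B6 was 0.33, with 42 of 45 members higher, and it was 0.01, with 26 higher, without B6 replicate 3. That between 129S2 and B6 was 0.24, with 41 higher, and -0.03, with 8 higher, without it. Rps18 read 13.66, 13.64 and 12.23 in B6 and 13.80, 13.75 and 13.75 in D2, and Rps27l read 11.99, 12.08 and 9.76 in B6. Both were called higher in D2, Rps18 by 0.59 and Rps27l by 0.89 (limma, adjusted p = 0.031 and 0.0364), and neither was without that array, at 0.12 and 0.13 (limma, adjusted p = 0.318 and 0.327). Without any 1 of the 3 D2 arrays the sizes stayed at 0.57 to 0.60 for Rps18 and 0.86 to 0.92 for Rps27l, and the calls were lost too (limma, adjusted p = 0.0619 to 0.0968). Rpl27a was called lower in D2 only without it, at -1.25 (limma, adjusted p = 0.0462), beside -0.80 with it.

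The remaining single-stage calls were of dimmer members. In liver at P1, Rps25 read 9.56, 9.43 and 9.26 in D2 and 8.67, 8.66 and 8.67 in 129S2, a difference of -0.75 ± 0.09 (limma, adjusted p = 4.15e-07) in the set where the D2 arrays had the higher 3′ to 5′ ratios. In brain at P90 Rps25 was lower in 129S2 than in D2 by -0.70 (limma, adjusted p = 0.0209), and not called without 129S2 replicate 1 or 3 (-0.70 and -0.51, adjusted p = 0.0706 and 0.225) or D2 replicate 1 or 2 (-0.69 and -0.63, adjusted p = 0.0749 and 0.102). Averaged over stages, the brighter probe set that carries Rps25 among several symbols gave 129S2 minus D2 differences of -0.07 in liver and -0.13 in brain. Those of the member were -0.51 and -0.475, and none of these averages was called. In liver at E14.5, Rpl39l read 8.01, 6.96 and 7.63 in B6, 8.01, 7.50 and 9.14 in D2 and 7.30, 7.00 and 7.10 in 129S2, and the ranges of B6 and D2 overlapped. Its difference between 129S2 and D2 was -1.08 ± 0.23 (limma, adjusted p = 0.00237), and that between D2 and B6 was 0.68 (limma, adjusted p = 0.0457), which was 0.22 without D2 replicate 3 and 0.40 without B6 replicate 2 (limma, adjusted p = 0.479 and 0.332).

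In liver at P7, Rpl27a read 11.05, 11.18 and 11.66 in D2 and 10.82, 9.89 and 9.88 in 129S2, a difference of -1.10 ± 0.37 (limma, adjusted p = 0.0359). It was not called without 129S2 replicate 2 or 3 or D2 replicate 2 or 3, at -0.92 to -1.16 (limma, adjusted p = 0.0722 to 0.159). Its values spread widely within other groups too, as in B6 brain at P1 with 9.54, 11.25 and 10.41.

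Whether a strain difference changed with stage was tested by the interaction of strain and stage. In brain 1 of 45 members was called, where 4.72% of all genes were, and in liver 2 of 46, where 31.8% were. In brain the member was Rps2, which lines the channel where the messenger RNA enters. Rps2 read 13.74, 13.76 and 13.76 in D2 and 13.70, 13.70 and 13.63 in 129S2 at E14.5, with levels close together, and 12.25, 12.30 and 12.22 in D2 and 12.72, 12.94 and 12.79 in 129S2 at P90, with D2 below. The difference between 129S2 and D2 ranged over stages by 0.63 (limma F test, adjusted p = 0.000375), and by 0.57, which is below 1.5-fold, without 129S2 P90 brain replicate 2. The 2 probe sets that carry Rps2 together with other symbols were higher in 129S2 than in D2 in brain by 0.27 and 0.28 averaged over stages, beside 0.24 for the member. These averages do not show whether the difference changed with stage, and the interaction was not tested on those 2 probe sets.

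In liver the members were Rps4l, described above, and Rpsa. Rpsa read 13.93, 13.79 and 13.80 in D2 at P1, above the 13.37 to 13.53 of B6 and 129S2, and 11.76, 11.77 and 11.67 in D2 at P90, below the 12.12 to 12.28 of the other strains. The difference between 129S2 and D2 in Rpsa ranged over stages by 0.82 (limma F test, adjusted p = 2.09e-07), and by 0.45, below 1.5-fold, on the mean of its probe sets. Without the P1 set it ranged by 0.62 and was still called (limma F test, adjusted p = 0.00011). In that fit Rpl12 was called in place of Rps4l, with a range of 0.65 (limma F test, adjusted p = 0.0252). The interaction of strain and tissue was called by limma in 0 of 46 members for each strain pair, where 2.26%, 2.51% and 2.23% of all 15071 genes were called, and 8, 3 and 4 members had an adjusted p below 0.05 without the fold minimum.

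Of all probe sets with a ribosomal protein symbol tested between strains, the one with the largest differences averaged over stages lay outside the representatives, in a second probe set annotated to Rps9 alone, a small-subunit protein of the messenger RNA entry site. In liver at E14.5 this probe set read 14.01, 14.08 and 14.00 in B6, 11.02, 10.88 and 11.04 in D2 and 10.99, 10.95 and 10.84 in 129S2. In brain at P90 it read 9.30, 9.10 and 9.25 in B6, 5.39, 5.35 and 5.42 in D2 and 5.08, 5.32 and 5.21 in 129S2. B6 was above both other strains, which lay close together. Averaged over stages, D2 was below B6 by -3.53 ± 0.08 in brain and -3.22 in liver (limma, adjusted p = 9.54e-24 and 7.4e-25), and 129S2 by -3.58 and -3.29. The representative probe set of Rps9 spanned 12.02 to 13.69 in B6, 11.96 to 13.85 in D2 and 12.08 to 13.66 in 129S2 and was not called. The remaining Rps9 probe set, with medians of 7.22 in B6, 7.47 in D2 and 7.52 in 129S2 over both tissues, was not called either.

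Among the other probe sets with a single ribosomal protein symbol, 53 in brain and 52 in liver were tested. Besides that of Rps9, 1 dim probe set of Rps3 was called lower in D2 than in B6, by -0.75 in brain and -0.64 in liver (limma, adjusted p = 8.62e-10 and 1.85e-07), and in liver 1 dim probe set of Rps20 by -0.59 and, in 129S2, by -0.64. The representative probe set of Rps3 was not called and spanned 12.36 to 14.07 in D2 and 12.19 to 14.00 in B6. Of the probe sets with several symbols, 105 in brain and 106 in liver were tested, and 1 or 2 were called in each comparison. A probe set that carries Rps19 and a pseudogene symbol was called higher than B6 in brain, by 0.98 in D2 and 1.18 in 129S2 (limma, adjusted p = 3.16e-14 and 6.08e-16). A probe set that carries Rpl15 was called higher than B6 in liver, by 0.76 in D2 and 0.79 in 129S2 (limma, adjusted p = 6.97e-14 and 2.66e-14). One that carries Rpl17 and pseudogene symbols was called lower in 129S2, below B6 by -1.18 in brain and -1.47 in liver and below D2 by -1.37 and -1.66 (limma, adjusted p = 7.51e-07, 2.92e-14, 5.49e-08 and 1.8e-15). The representative of Rps19 was not called. Brighter probe sets that carry Rpl15 (mean level 13.25) or Rpl17 (13.02 and 13.36) among several symbols were not called either.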

How the data were processed

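The deposited values are log2 signals of 45101 probe sets on 72 arrays, made by the authors with RMA, per the submitters' processing notes, whose version is not given in the sources used here. All 72 value columns were matched to a sample by its title. Groups came from the sample labels. Of the probe sets, 34958 carried 1 gene symbol, 932 several and 9211 none. Genes entered when their highest group mean exceeded 6.66, which kept 14181 in brain, 13145 in liver and 15071 in both. Strains were compared with limma 3.58.1 in R 4.3.3 (a mean for each group, eBayes, two-sided, Benjamini-Hochberg over all genes of a comparison), with all 36 arrays of a tissue, or all 72, in the fit. The limma fits of strain differences, of their interaction with stage and of the replicate block were tested on simulated brain arrays. The steps for stages, tissues and promoters had no such test. For stages and tissues, arrays were quantile normalized within a tissue or together, and a gene counted when all 3 strains differed the same way by 2-fold or more. An interaction compares strain differences between sets that were normalized apart. Promoters came from RefSeq on GRCm38.p6.

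Members and lists were chosen with earlier results of these data known. Named were members called in a strain comparison, the 5 highest and 5 lowest between P90 and E14.5 in each tissue and between tissues, the 3 highest and 3 lowest by level, members with a -like suffix and their parents, and members with 1 array far from the others. Probe sets outside the representatives were named after their values were seen. Alternatives were other scalings, filters, variance models, array weights, the mean over probe sets, a replicate block and leaving out each array. Whether replicate numbers pair arrays was checked by the correlation of deviations from the group means: over 72 same-numbered pairs it was -0.463 to 0.646 (median 0.039). All 3 pairs were above 0.1 in 4 of 24 combinations of strain pair, tissue and stage, and only there are the numbers taken to pair the arrays. These were D2 and B6 in P7 brain (0.562 to 0.646), 129S2 and B6 in P1 brain (0.502 to 0.518), and 129S2 in E14.5 liver with D2 (0.329 to 0.424) and with B6 (0.217 to 0.408). The labels do not say what a number marks.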

Additional observations from a re-analysis of the deposited data

Results flagged for a closer look

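The strain difference of 3 members differed between stages by the interaction test of limma. For Rps2 in brain, the difference between 129S2 and D2 spanned 0.632 log2 units over the 4 stages (adjusted p = 0.000375), with 129S2 above D2 by most at P90. For Rps4l in liver, the difference between D2 and B6 spanned 1.37 (adjusted p = 0.0142), it was largest at P1, and without the P1 set the interaction was not called (0.78, adjusted p = 0.221). For Rpsa in liver, the difference between 129S2 and D2 spanned 0.822 (adjusted p = 2.09e-07), with D2 higher at P1 and lower at P90. The P1 liver arrays of D2 also had the higher 3′ to 5′ ratios of Actb, 1.58 to 3.21 against 0.76 to 1.205. Without the P1 set, the span of Rpsa was 0.62 and still called (limma F test, adjusted p = 0.00011).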

How the results depend on the processing

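The calls of Rpl14, Rps6 and Rps4l averaged over stages, 6 in brain and 6 in liver, were kept in each setting tried, other than that no second single-symbol probe set could be called with them (0 and 0). Without a fold minimum, the members' calls rose to 16 in brain and 25 in liver averaged over stages, 36 and 74 at single stages, 2 and 15 for the interaction with stage and 15 for that with tissue. A second probe set was called with the representative for 2 of 23 single-stage calls in brain and 0 of 27 in liver. Array weights gave 4 interaction calls in liver and 1 with tissue. Leaving out 1 array gave 20 to 53 single-stage calls in brain, with 53 and 50 without B6 E14.5 replicate 1 or 2, which leave replicate 3 with 1 other array. It gave 1 to 2 interaction calls in brain and 2 to 4 in liver. The fit without the P1 liver set and the sizes without B6 E14.5 brain replicate 3 were chosen after seeing the data.

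With a replicate block the calls were 6 and 6 averaged over stages, 24 and 26 at single stages, 1 and 3 for the interaction with stage and 0 with tissue. Beside the Rps4l call gained in P1 brain, the block gained the interaction of Rpl39l in liver (1.09, limma adjusted p = 0.0493), lost the call of Rps4l between 129S2 and D2 in P90 liver (0.60, limma adjusted p = 0.0593) and changed no other call of the members. That Rps4l call was also lost without D2 replicate 3 (0.33, adjusted p = 0.388), 129S2 replicate 1 (0.41, 0.291), D2 replicate 1 (0.58, 0.112) or 129S2 replicate 2 (0.63, 0.0778; limma).

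Sizes between stages depended on the scaling. For P90 against E14.5, the members' median in brain was -1.11 as deposited and -0.25 with arrays centred on their medians, with 18 members lower by 2-fold as deposited and 11 at 1.5-fold. In liver it was -1.64 and 0.053, with 42 and 5 lower, and 34 at 1.5-fold, and Rps20 turned to 0.071. Between tissues, centred arrays gave -0.92 at E14.5 with 8 members lower and -1.11 at P90 with 21 lower. At 1.5-fold, 6 were lower at E14.5, and 7 lower and 4 higher at P90. As deposited, P90 gave 0.26 with 4 higher and 1 lower, and Rpl39 turned to 0.23. Leaving out 1 replicate number gave 1 to 2 lower at E14.5. The cause was not tested. Bright probe sets lie near the top of the signal range, where differences can be compressed, and the 3 arrays of a group limit the precision.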
